A study of Homo sapiens with 4 samples.

Results

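Transcription of 10 genes of neuronal calcium signalling and vesicle release was followed in HCT116 cells with and without type II topoisomerases. The genes were taken by name from a list of 2 neuronal calcium sensors (VSNL1, HPCAL1), 2 calmodulin-dependent kinases (CAMK4, CAMK2D), 2 vesicle priming proteins (CADPS, CADPS2), 2 NMDA receptor subunits (GRIN2B, GRIN2D), the vesicle calcium sensor SYT1 and the navigator NAV3. They stand among 60656 gene IDs in the count files, of which 19103 were tested. Several were chosen by their log2 fold changes between the 2 groups compared here, so their own changes and calls are given below as a description of the choice and support nothing.

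HCT116 is a human colorectal carcinoma line. The assay, TTchem-seq, reads newly made RNA: transcripts labelled in a 30 min pulse of 1 mM 4-thiouridine are fragmented, purified and sequenced. By its title the study concerns type II topoisomerases, which relieve DNA supercoils by cutting and resealing both strands, and the folding of chromatin. The DKO group (2 libraries) is labelled as a double knockout of TOP2A and TOP2B. Its treatment text describes TOP2A fused to a degron (mAID) and TOP2B -/-, and these cells received 500 µM indole-3-acetic acid (auxin) for 8 h. The WT group (2 libraries) has the genotype label wildtype, while the other line in the treatment text is TOP2A mAID alone, so whether WT carries the degron is not settled by the labels. For 28 h both lines received 2 µM palbociclib, which blocks CDK4 and CDK6 and arrests cells in G1. Auxin is named for DKO alone, so enzyme loss, auxin and differences between clones cannot be told apart, and the labels give neither the number of clones nor whether replicates were separate cultures.

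In neurons, calcium that enters through channels and NMDA receptors, which are glutamate-gated channels, binds small EF-hand sensor proteins and calmodulin. Calmodulin then activates kinases that act on synapses and on gene transcription. At the nerve terminal calcium binds synaptotagmin on the vesicle, and the SNARE proteins fuse the vesicle with the membrane after priming factors have made it ready. Most of these genes have a paralogue with broader expression, and epithelial cells use relatives of the same machinery for secretion.

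The libraries held 51142867 to 53777749 counted reads. TOP2B RNA was not called (7852 and 8000 reads in DKO, 7264 and 7303 in WT; log2 fold change 0.07 ± 0.05 with its error, edgeR adjusted p = 0.223). The labels do not say how TOP2B was disrupted and TOP2A is removed as protein, so RNA totals check neither label. Epithelial identity was present in both groups, with EPCAM, KRT8, KRT18 and KRT19 between 2470 and 8623 reads in every library, while KRT20, VIL1 and CDX1 had 11 or fewer. Of all tested protein-coding genes 25.1% were called lower in DKO and 20.3% higher. Of the 8 epithelial markers tested 5 were called lower, CDH1 (-0.37 ± 0.05, adjusted p = 5.96e-11), KRT8, KRT18, ELF3 and CLDN7. Without WT replicate 1, or with no count filter, CDH1 alone of these was called, and the other 4 had adjusted p-values of 0.159 to 0.38 without that library and 0.1 to 0.221 with no filter. The summed level of all 11 epithelial markers was 432 to 446 CPM in DKO and 472 to 505 in WT. Of 13 neuronal markers, 11 lay under 1 CPM (counts scaled to library size) in all 4 libraries. The neurofilament genes NEFL and NEFM were at 0 reads throughout, and STMN2, DCX and GAP43 had at most 4. A count of 0 need not mean that a gene is silent, as the counting settings are not known. The calmodulin gene CALM2 and the SNARE gene VAMP2 had at most 1 read in any library, and PPP3R1 and VAMP7 had 0. The summed level of the neuronal markers was 9.13 to 9.69 CPM in DKO and 5.55 to 6.71 CPM in WT. The largest part of the sum was MAP2, which was not called (5.26 and 5.15 CPM in DKO, 4.37 and 5.26 in WT). Most of the difference was NCAM1, an adhesion gene (3.19 and 2.9 CPM in DKO, 0.154 and 0.0783 in WT). NCAM1 rose from 8 and 4 reads to 170 and 155 (log2 fold change 4.68 ± 0.27, adjusted p = 1.16e-38). The printed error of NCAM1 is too small for so few WT reads. Of 9 neuroendocrine markers, NEUROD1 and NEUROG3 were at 0 reads and none of the 3 tested was called (sums of 6.63 to 7.76 CPM in DKO and 7.54 to 7.98 in WT). Of 8 glial markers, OLIG1, OLIG2 and S100B were at 0 and MBP alone was tested and not called (sums of 215 to 224 CPM in DKO, 225 in both WT libraries). Of 9 mesenchymal markers TWIST1 (3.09 ± 0.16, adjusted p = 1.19e-45) and ZEB1 (0.92 ± 0.05, adjusted p = 5.25e-42) rose, with a summed level of 101 to 110 CPM in DKO and 54.4 to 55.5 in WT. Most of that sum was ZEB1 (91.4 and 99.9 CPM in DKO, 50.1 and 50.9 in WT). COL1A1 was not called (-0.14, adjusted p = 0.404). The other 6 lay under 1 CPM in all libraries, with COL1A2, PDGFRA and LUM at 0 reads. All 6 blood cell markers lay under 1 CPM, and CSF1R had 19 and 26 reads in WT and 5 and 9 in DKO. A part of other cells or states in the changes below was not tested.

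The word ectopic fits these genes only in part. In WT, 8 of the 10 genes already stood at 1 CPM or more in both libraries, and SYT1 and GRIN2B gave 3841 to 6884 reads there. VSNL1 (0.79 and 1.06 CPM in WT) and CADPS (0.0771 and 0.0978 CPM) were the exceptions. The count filter was passed by 9 genes, all but CADPS. Of these 9, 8 were called higher in DKO and none lower at an adjusted p under 0.05, and 6 of the 8 were over 4-fold higher. Among all 13178 tested protein-coding genes 20.3% were called higher, 45.5% were called in either direction and 0.774% were called higher by over 4-fold, and of all 19103 tested genes 40.1% were called in either direction. Since the list was drawn up for such rises, nothing is read from that contrast. In RNA from a whole culture, a change in every cell and a change in the number of cells that transcribe a gene cannot be told apart.

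**Figure D1:**
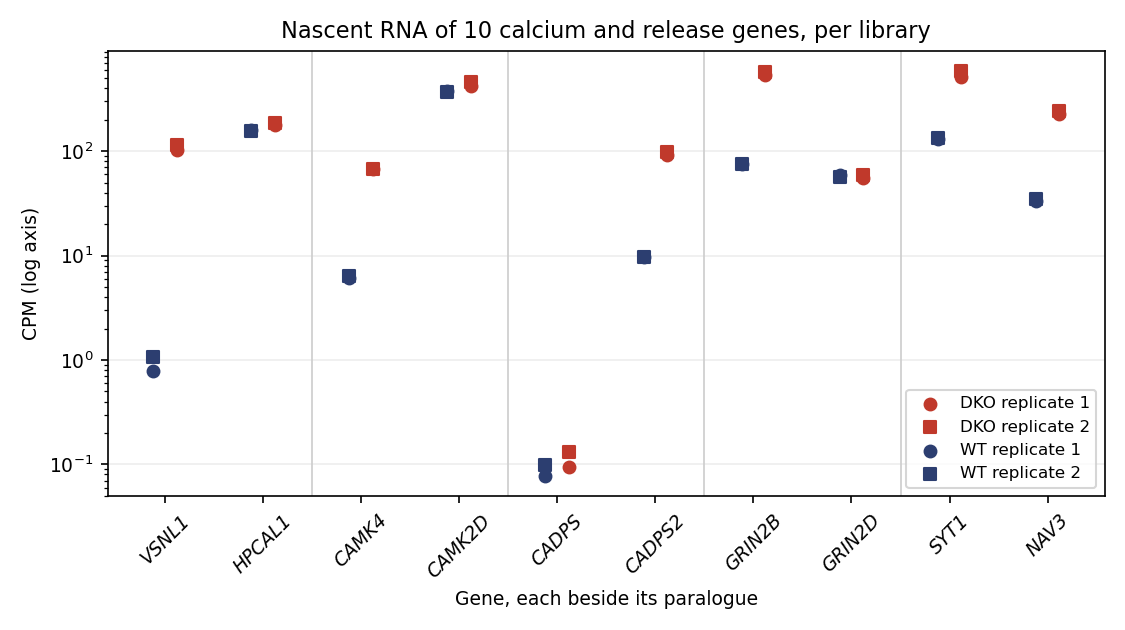
Level of each gene in CPM (log axis) in every library, with WT in blue to the left and DKO in red to the right, circles for replicate 1 and squares for replicate 2, and vertical lines between pairs. VSNL1, CAMK4, CADPS2, GRIN2B, SYT1 and NAV3 are far apart between groups, while HPCAL1, CAMK2D, GRIN2D and CADPS lie close together.

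VSNL1 encodes visinin-like protein 1, an EF-hand calcium sensor of neurons that binds membranes when calcium is present. It had 5418 and 6059 reads in DKO and 41 and 54 in WT. Both DKO libraries were high, both WT libraries were near the floor, and the groups did not overlap. Its level went from 0.923 ± 0.188 to 108 ± 8.38 CPM (SD, n = 2), a log2 fold change of 6.86 ± 0.09 (error derived from the edgeR statistic), or 116-fold. This was the 3rd largest log2 fold change among the 13178 tested protein-coding genes. The counting error of the 95 WT reads alone is 0.15 on the log2 scale, so the printed error is too small.

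HPCAL1, hippocalcin-like 1, is a sensor of the same family with wide expression. It had 9427 and 9949 reads in DKO and 8256 and 7952 in WT, so the groups were separate but near. Its level was 182 ± 6.71 CPM in DKO and 157 ± 2.5 in WT, a log2 fold change of 0.21 ± 0.05, a call lost without either WT library. For each 100 reads of HPCAL1 there were 57.5 and 60.9 reads of VSNL1 in DKO, against 0.497 and 0.679 in WT. The log2 ratio of the pair thus moved from -7.43 ± 0.32 to -0.76 ± 0.06 (SD, n = 2), a change of 6.67. Both genes lie on chromosome 2 (hg38), VSNL1 from 17539972 to 17657018 and HPCAL1 from 10302904 to 10427604, and the chromosome's median log2 fold change was 0.02.

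The bases before the first listed start of each gene are shown because the pair has near equal spans but opposite starting levels. They are the 250 bases upstream of the start from RefSeq on GRCh38.p14, 5′ to 3′ on the gene's plus strand, at chr2:17539722-17539971 for VSNL1 and chr2:10302654-10302903 for HPCAL1. Capitals mark CG dinucleotides, the sites of DNA methylation.
VSNL1: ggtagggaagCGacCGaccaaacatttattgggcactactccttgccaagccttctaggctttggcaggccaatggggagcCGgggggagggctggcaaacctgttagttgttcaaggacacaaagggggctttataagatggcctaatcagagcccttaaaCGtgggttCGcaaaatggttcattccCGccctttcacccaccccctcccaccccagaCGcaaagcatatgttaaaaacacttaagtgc
HPCAL1: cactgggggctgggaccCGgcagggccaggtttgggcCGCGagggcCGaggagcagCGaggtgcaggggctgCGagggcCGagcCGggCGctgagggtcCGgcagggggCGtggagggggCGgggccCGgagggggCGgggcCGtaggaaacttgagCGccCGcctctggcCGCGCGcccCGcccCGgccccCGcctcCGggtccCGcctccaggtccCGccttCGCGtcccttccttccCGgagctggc
The VSNL1 window held 7 CG dinucleotides at 52.8% G+C and the HPCAL1 window 29 at 80%. The median of all 35114 windows of this length in the table was 11 at 58%. A further listed start of VSNL1 has a window with 15, and those of HPCAL1 have 21 and 6, so the order of the pair depends on the start, and which start is used in these cells cannot be read from gene counts.

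CAMK4 encodes calmodulin-dependent kinase IV, a nuclear kinase that phosphorylates the transcription factor CREB in neurons and T cells. It had 3634 and 3626 reads in DKO against 319 and 329 in WT. The libraries of a group were nearly equal and the groups were an order of magnitude apart. The level was 68.1 ± 0.184 CPM in DKO and 6.29 ± 0.204 in WT, a log2 fold change of 3.44 ± 0.07 (10.8-fold). CAMK2D, the delta subunit of the multimeric kinase CaMKII and its common form outside the brain, had 22317 and 24437 reads in DKO and 19377 and 18859 in WT. These groups were separate but near (438 ± 27.6 against 371 ± 3.15 CPM, log2 fold change 0.24 ± 0.05), and the call was lost without either WT library. Reads of CAMK4 per 100 of CAMK2D were 16.3 and 14.8 in DKO and 1.65 and 1.74 in WT, a change of 3.2 in the log2 ratio.

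CADPS and CADPS2 encode the CAPS proteins, which prime dense-core vesicles, the carriers of neuropeptides and hormones, for release. This pair held the gene with almost no reads. CADPS had 5 and 7 reads in DKO and 4 and 5 in WT over a span of 477 kb. It did not pass the filter, and its groups met at 5 reads. CADPS2 had 4931 and 5230 reads in DKO and 503 and 497 in WT. Its level rose from 9.71 ± 0.0212 to 95.3 ± 3.86 CPM (log2 fold change 3.29 ± 0.06, 9.81-fold), and the DKO libraries stood far above both WT libraries. CADPS gave 0.101 and 0.134 reads per 100 of CADPS2 in DKO and 0.795 and 1.01 in WT, a ratio that moved with the reads of CADPS2. Here the paralogue with the higher WT level per kb of span was the one that rose over 4-fold. In the other pairs it was the one with the lower level per kb, though in CPM GRIN2B was above GRIN2D in WT.

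GRIN2B and GRIN2D encode GluN2B and GluN2D, regulatory subunits of the NMDA receptor, and both are prominent in the developing brain. GRIN2B had 28541 and 30681 reads in DKO and 3914 and 3841 in WT. The groups did not overlap, and the WT libraries were nearly equal. The level went from 75.3 ± 0.199 to 555 ± 27.7 CPM (log2 fold change 2.88 ± 0.05, 7.38-fold). GRIN2D had 2948 and 3121 reads in DKO and 3078 and 2887 in WT, so its groups overlapped fully (log2 fold change -0.02 ± 0.05, not called, and 0.01 with upper quartile factors). Reads of GRIN2B per 100 of GRIN2D rose from 127 and 133 to 968 and 983. The annotation places KDELR1, an endoplasmic reticulum retention receptor gene on the opposite strand, over part of GRIN2D. KDELR1 fell (log2 fold change -0.33 ± 0.07, adjusted p = 8.11e-06), and without a known strand setting reads of the overlap cannot be assigned.

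The windows before the first listed starts of this pair are shown because one gene rose and the other was not called, with CG dinucleotides in capitals, from RefSeq on GRCh38.p14. GRIN2B lies on the minus strand (chr12:13982135-13982384) and GRIN2D on the plus strand (chr19:48393418-48393667).
GRIN2B: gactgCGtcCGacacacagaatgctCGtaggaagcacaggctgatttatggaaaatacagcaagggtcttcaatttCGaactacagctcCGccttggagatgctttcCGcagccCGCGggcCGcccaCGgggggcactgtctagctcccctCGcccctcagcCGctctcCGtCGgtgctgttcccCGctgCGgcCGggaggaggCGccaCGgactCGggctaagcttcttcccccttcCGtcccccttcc
GRIN2D: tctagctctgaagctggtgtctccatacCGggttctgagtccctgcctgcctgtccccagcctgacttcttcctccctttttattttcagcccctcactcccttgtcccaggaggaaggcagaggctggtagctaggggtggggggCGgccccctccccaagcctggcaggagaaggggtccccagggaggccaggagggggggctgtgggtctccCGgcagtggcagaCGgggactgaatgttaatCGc
The GRIN2B window held 21 CG dinucleotides and the GRIN2D window 5. Over the 17 listed windows of 9 members (CADPS2 has none in the table), the count ran from 0 in a window of CAMK4 to 33 in a window of GRIN2B. RE1, the site bound by the neuronal gene repressor REST, was found in 0 of the 17, on either strand, and in 0.0598% of all windows. The full cyclic AMP response element TGACGTCA was found in 0 of the 17 and in 1.65% of all windows. A match would be letters alone, and their absence from so short a window tells nothing of the factor.

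SYT1 encodes synaptotagmin 1, the vesicle protein that senses calcium and triggers fast transmitter release. It had 27321 and 31244 reads in DKO and 6809 and 6884 in WT. All libraries were well covered, and the lowest DKO library was several times the highest WT library. The level rose from 133 ± 2.45 to 549 ± 51.4 CPM (log2 fold change 2.05 ± 0.05, 4.13-fold). NAV3, neuron navigator 3, encodes a protein of microtubule ends in growing neurites. It had 12157 and 12795 reads in DKO and 1741 and 1784 in WT, with no overlap, and rose from 34.2 ± 0.956 to 234 ± 8.19 CPM (2.77 ± 0.05, 6.84-fold). The 2 genes are next to each other among the tested protein-coding genes of chromosome 12, with 651 kb between the end of NAV3 (77571862 to 78213010) and the start of SYT1 (78863982 to 79452008). The chromosome as a whole had a median log2 fold change of 0.

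**Figure D2:**
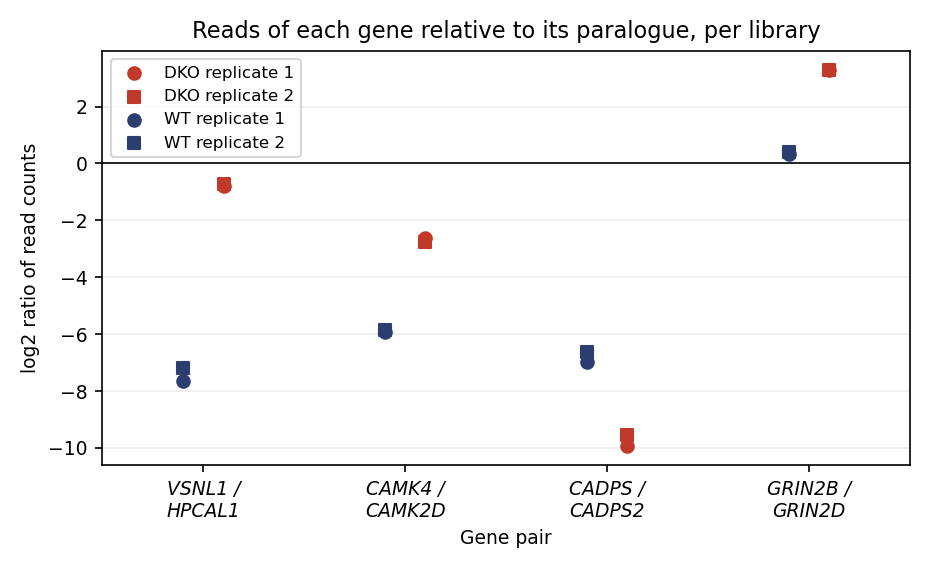
The log2 ratio of read counts of each gene to its paralogue in every library, WT in blue and DKO in red, with equal counts at the line of 0. The ratio rose for VSNL1, CAMK4 and GRIN2B and fell for CADPS over CADPS2, with changes of 6.67, 3.2, 2.91 and -2.94.

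Levels were then compared between genes as CPM per kb of genomic span. In WT, HPCAL1 (1.26 ± 0.02 CPM per kb), CAMK2D (1.19 ± 0.0101) and GRIN2D (1.13 ± 0.0391) led, and the gap from CAMK2D to GRIN2D was only slightly larger than their SD. SYT1 (0.226 ± 0.00416) and GRIN2B (0.169 ± 0.000447) followed. NAV3 (0.0534 ± 0.00149), CAMK4 (0.0232 ± 0.000754), CADPS2 (0.0171 ± 3.73e-05), VSNL1 (0.00789 ± 0.00161) and CADPS (0.000183 ± 3.07e-05) were lower by steps larger than their spread. In DKO the order was HPCAL1 (1.46 ± 0.0538), CAMK2D (1.41 ± 0.0889), GRIN2B (1.25 ± 0.0624), GRIN2D (1.11 ± 0.0435), SYT1 (0.934 ± 0.0874) and VSNL1 (0.919 ± 0.0716). Within it HPCAL1 and CAMK2D, and SYT1 and VSNL1, did not differ beyond their spread. NAV3 (0.365 ± 0.0128), CAMK4 (0.251 ± 0.000679), CADPS2 (0.168 ± 0.00679) and CADPS (0.000236 ± 5.53e-05) came last. Per kb of span, GRIN2B was thus below GRIN2D in WT and above it in DKO, while in CPM it was above GRIN2D in both groups. VSNL1 was below SYT1 in WT and overlapped it in DKO, also per kb of span. CADPS, with 4 to 7 reads in a library, is placed last in both groups, and no change of its own can be read at that depth.

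The 6 genes that rose over 4-fold shared length, with spans of 117 to 641 kb against a median of 35 kb over tested protein-coding genes. Among 2844 tested protein-coding genes of at least 100 kb, 52% were called in either direction, 34.7% were called higher and 1.79% higher by over 4-fold, the last 2 shares more than the 20.3% and 0.774% of all. The paralogues that moved little were long as well, HPCAL1 at 125 kb and CAMK2D at 311 kb. CADPS, with few reads, spans 477 kb, while GRIN2D spans 51.3 kb. Whether exons or whole gene bodies were counted is not known, so spans are not the counted lengths.

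Relatives and partners of the 10 genes were examined in 9 lists with 164 genes, of which 128 were tested. Of these, 29 rose (22.7%) and 36 fell (28.1%), close to the 20.3% and 25.1% of all tested protein-coding genes, and the median log2 fold change was -0.05 against -0.026. Calls were fewer with either WT library left out, both in these lists and over all tested genes. 4 of the genes rose over 4-fold (3.12%, against 0.774%). The lists were drawn up with earlier results of these data known, so nothing is read from that difference. Of these 4 genes SV2B, a vesicle protein gene named here after its values were seen, rests on few reads (18 and 20 in DKO, 6 and 1 in WT).

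**Figure D3:**
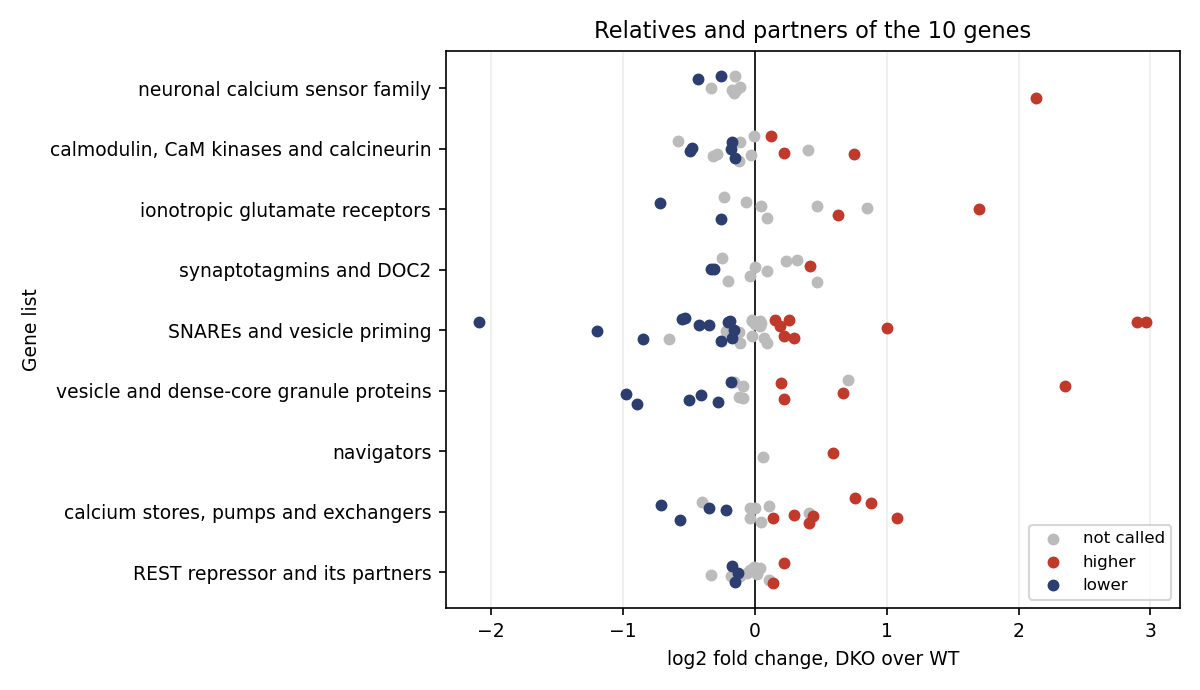
Log2 fold change (DKO over WT) of each tested gene of the 9 lists, one row per list with points spread vertically for legibility, red for genes called higher, blue for lower and grey for not called. Most genes lie within 1 unit of 0, and NCALD, STXBP6, SNAP25 and SV2B lie above 2.

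Of 9 tested neuronal calcium sensors 1 rose and 2 fell (median log2 fold change -0.16). NCALD, neurocalcin delta, went from 38 and 40 reads in WT to 171 and 184 in DKO (2.13 ± 0.18, adjusted p = 1.54e-23). NCS1, the most widely expressed sensor of the family, fell slightly from 83.4 ± 0.524 to 69.8 ± 1.06 CPM (-0.26 ± 0.05, adjusted p = 3.38e-06), and KCNIP3, a partner of potassium channels, also fell (-0.43 ± 0.12, adjusted p = 0.00274). Without WT replicate 1 neither NCS1 (adjusted p = 0.0562) nor KCNIP3 (0.143) passed, and KCNIP3 also missed with DESeq2 (0.0705) and with no count filter (0.0685).

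Of 16 tested genes of calmodulin, its kinases and calcineurin, 3 rose and 5 fell (median -0.13), and PPP3CA was the 1 gene of them called without WT replicate 1. PPP3CA, the main catalytic subunit of the phosphatase calcineurin, rose from 26073 and 25494 reads to 41924 and 47772 (0.75 ± 0.05, adjusted p = 2.86e-30). CAMK1 fell (-0.48 ± 0.1, adjusted p = 1.18e-05), as did CAMK2N1, an inhibitor of CaMKII (-0.49 ± 0.12, adjusted p = 0.000339). Without WT replicate 1 CAMK1 (0.0778) and CAMK2N1 (0.0579) were not called, nor was CAMK2N1 without WT replicate 2 (0.164) or with no count filter (0.123). CREB1, the target of CAMK4, had a log2 fold change of 0.12 ± 0.05 (adjusted p = 0.0283) whose call was lost without either WT library (0.256 without replicate 1, 0.143 without replicate 2), without DKO replicate 2 (0.114), with DESeq2 (0.0533) and with no count filter (0.123).

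Of 10 tested ionotropic glutamate receptor genes 2 rose and 2 fell (median 0.07). GRIK2, a kainate receptor subunit, rose from 288 and 306 reads to 934 and 1066 (1.7 ± 0.09, adjusted p = 1.93e-44). GRIN1, the subunit that every NMDA receptor requires, was low and fell from 163 and 149 reads to 88 and 108 (-0.72 ± 0.15, adjusted p = 2.22e-05), though not past the threshold without WT replicate 1 (-0.67, adjusted p = 0.0878). GRIN1 stood at 1.84 ± 0.263 CPM in DKO, where GRIN2B stood at 555 ± 27.7 CPM. These levels are not scaled to span, which is 445 kb for GRIN2B, so they give no ratio of the subunits. The kainate gene GRIK4 (-0.26 ± 0.07, adjusted p = 0.00274) and the NMDA gene GRIN2C (0.63 ± 0.18, adjusted p = 0.00268) were not called without either WT library in turn (0.217 and 0.177 for GRIK4, 0.11 and 0.182 for GRIN2C) or with no count filter (0.168 and 0.119). GRIK4 was also lost without DKO replicate 1 (-0.14, adjusted p = 0.21), and GRIN2C without DKO replicate 2 (0.104) and with DESeq2 (0.0857).

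The release machinery was mixed. Of 33 tested SNARE and priming genes 8 rose and 12 fell (median -0.02). With either WT library left out fewer were called, as over all tested genes. SNAP25, the SNARE of neuronal membranes, rose from 30 and 29 reads to 216 and 263 (2.97 ± 0.18, adjusted p = 4.46e-37), on chromosome 20, whose median log2 fold change was -0.59. STXBP6, or amisyn, a SNARE-binding protein, rose from 108 and 126 reads to 888 and 923 (2.9 ± 0.11, adjusted p = 2.8e-66). The broadly expressed STXBP3 rose slightly (0.3 ± 0.05, adjusted p = 6.36e-08). UNC13D, a priming factor of secretory granules in blood cells, fell from 252 and 194 reads to 50 and 58 (-2.09 ± 0.16, adjusted p = 6.89e-27). NAPB (-0.55 ± 0.05, adjusted p = 2.13e-21), a SNARE disassembly factor on chromosome 20, and CPLX1, complexin 1 (-0.53 ± 0.09, adjusted p = 2.26e-07), fell by less. Of 11 tested synaptotagmin and DOC2 genes beside SYT1, 1 rose, SYT13 (0.42 ± 0.1, adjusted p = 0.0002), and 2 fell, SYT7 (-0.31 ± 0.06, adjusted p = 1.08e-05) and DOC2B (-0.33 ± 0.06, adjusted p = 6.59e-06), with a median of 0. Without WT replicate 1 SYT13 (0.0868), SYT7 (0.0583) and DOC2B (0.0527) missed the threshold.

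Of 15 tested vesicle and granule genes 4 rose and 6 fell (median -0.12). Here too fewer were called with either WT library left out, as over all tested genes. RAB3B, a GTPase of secretory vesicles, fell from 2995 and 2780 reads to 1517 and 1507 (-0.98 ± 0.06, adjusted p = 1.93e-39), and its relative RAB3A fell too (-0.5 ± 0.08, adjusted p = 1.42e-07). CPE, carboxypeptidase E, which trims peptide hormones in granules, rose from 896 and 902 reads to 1394 and 1568 (0.67 ± 0.07, adjusted p = 2.76e-17). The granule cargo genes CHGA and CHGB had at most 2 reads in any library. The navigator NAV2 rose (0.59 ± 0.05, adjusted p = 2.23e-23) and NAV1 was not called (0.06, adjusted p = 0.306), against the 2.77 of NAV3.

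Of 18 tested genes of calcium stores, pumps and exchangers 7 rose and 4 fell (median 0.08). The store channel genes ITPR1 (0.88 ± 0.05, adjusted p = 3.7e-39), ITPR2 (0.44 ± 0.05, adjusted p = 9.26e-16) and RYR2 (0.76 ± 0.13, adjusted p = 2.23e-07) rose. ORAI2, a store-operated entry channel (-0.71 ± 0.11, adjusted p = 2.54e-08), RYR1 (-0.57 ± 0.11, adjusted p = 4.52e-06) and the mitochondrial exchanger SLC8B1 (-0.35 ± 0.06, adjusted p = 6.21e-08) fell. REST, the zinc finger repressor of neuronal genes, had 3636 and 3641 reads in DKO and 3551 and 3538 in WT (-0.01 ± 0.05, adjusted p = 0.869, and 0.02 with upper quartile factors). Of the 14 tested genes for REST and its partners 2 rose and 3 fell, with a median of -0.05. In edgeR none of the 14 was called without either WT library, where an unadjusted p under 0.05 was reached by 1 higher and 2 lower genes without replicate 1, and by 1 and 3 without replicate 2. SIN3A (0.22 ± 0.05, adjusted p = 2.75e-05) rose, though not without WT replicate 1 (0.0797) or WT replicate 2 (0.0515).

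Neighbours were read to describe the genes that lie near the members. Whether the change of a neighbour is linked to that of its member was not tested. The 2 nearest tested protein-coding genes on each side within 1 Mb gave 36 genes beside the members themselves. Of these 16 were higher (44.4%) and 3 lower (8.33%), against 20.3% and 25.1% of all tested protein-coding genes, with a median log2 fold change of 0.18. Fewer neighbours were called with either WT library left out, and so were fewer of all tested genes. Most of the rises were small. Of the 20 neighbours of the 6 genes that rose over 4-fold, 10 were higher and 2 lower. The largest rises among them were those of RAD51AP2, which has few reads, and NREP.

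RAD51AP2, a meiotic repair gene that ends 2.11 kb before VSNL1, had 17 and 20 reads in DKO and 2 and 0 in WT (adjusted p = 1.12e-07). The ratio of summed reads was 17.9-fold, with an exact (Clopper-Pearson) 95% counting interval of 4.61 to 153. On the other side of VSNL1, at 6.79 kb, the SMC5/6 complex gene SMC6 rose by a log2 of 0.38 ± 0.05 (adjusted p = 8.9e-13), and GEN1, at 96.3 kb, was not called (0.08, adjusted p = 0.219). Next to CAMK4, the cholesterol carrier gene STARD4, at 1.15 kb, fell (-0.43 ± 0.05, adjusted p = 5.75e-12), while NREP, at 234 kb, rose from 42 and 37 reads to 118 and 163 (1.78 ± 0.19, adjusted p = 3.23e-16). ARSJ, 139 kb from CAMK2D, rose from 215 and 197 reads to 752 and 759 (1.82 ± 0.1, adjusted p = 4.03e-43), where CAMK2D itself had 0.24. PAWR, at 133 kb beyond SYT1, was not called (0.07, adjusted p = 0.246).

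**Figure D4:**
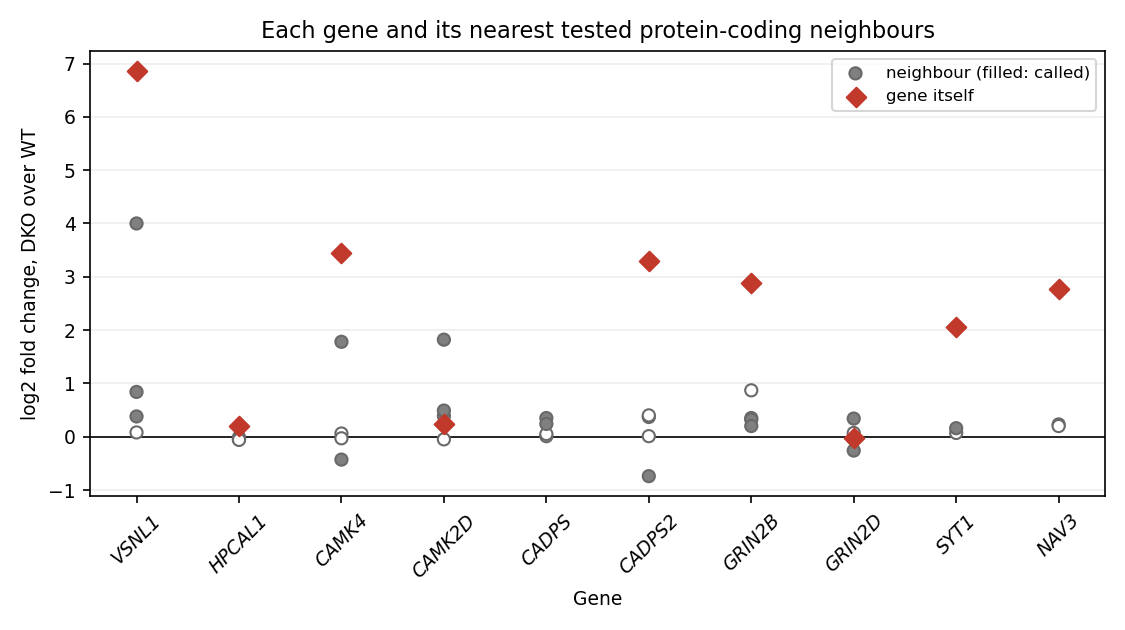
Log2 fold change (DKO over WT) of each gene (red diamond) and of its nearest tested protein-coding neighbours (circles, filled where called at an adjusted p under 0.05, open where not called). Genes of the list are not drawn as circles. The diamonds of VSNL1, CAMK4, CADPS2, GRIN2B, SYT1 and NAV3 lie above all of their circles. SYT1 (2.05) lies below its neighbour NAV3 (2.77), which is drawn as a diamond alone. CADPS has no diamond because it was not tested.

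The genes most like VSNL1 and SYT1 were taken as those with the smallest distance of gene-centred log2 CPM over the 4 libraries, with poorly covered genes (mean log2 CPM under 3) left out. For VSNL1 they were ZNF804A (distance 1.7 log2 units), LRMDA (1.77) and IAH1 (3.02). None came near its change, with ZNF804A at 5.16 and LRMDA at 5.09 on the log2 scale. For SYT1 they were ZNF704 (0.11), FRK (0.18) and TGFB2 (0.18), each about 4-fold higher in DKO. With 4 libraries in 2 groups such likeness is mostly a likeness of fold change.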

How the data were processed

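The authors deposited unnormalized read counts for Ensembl gene IDs. The submitters' processing notes name STAR 2.7.3a, featureCounts 1.6 and hg38. Libraries were stranded, per the labels' protocols, with the strand setting of the counting, gene set version and counted feature not given in the sources used here. Counts are relative to library totals, with no spike-in used here.

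Symbols were matched for 42020 of 60656 IDs and RefSeq positions (GRCh38.p14, the hg38 build) for 40517. All 10 members were found. DKO and WT were compared in edgeR 4.0.16 (R 4.3.3) by its quasi-likelihood test with TMM factors. Low genes were removed by filterByExpr (count minimum 10 and total minimum 15, as preset). Adjusted p-values are Benjamini-Hochberg values over all 19103 tested genes, called under 0.05. They measure the spread between 2 libraries a group, which may be technical. Replicates differed by more than sampling noise (chi-square per degree of freedom 4.57 in DKO and 3.98 in WT). Errors on log2 fold changes are the absolute change over the root of the F statistic. For genes with few reads in a group, such as VSNL1 and NCAM1, they can fall below the counting error. CPM uses TMM-scaled totals, and log2 CPM a prior count of 2.

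The members, gene lists and tests were chosen with earlier results of these data known. Genes named beyond the members are the called genes with the 3 largest changes in each direction of a list (mean log2 CPM of at least 0), called markers over 1 CPM, neighbours and most-like genes. Some are not described. KDELR1 (an overlapping gene), uncalled markers, genes with a few reads, NAV1 and REST were named after their values were seen. Alternatives were DESeq2 1.42.0 (size factors and Wald test), upper quartile factors, no filter, at least 50 reads in 2 libraries, limma voom 3.58.1, a replicate block, and each library left out in turn. The test was checked on simulated data. Counting intervals cover counting error only.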

Additional observations from a re-analysis of the deposited data

How the results depend on the processing

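The members were chosen on these libraries, so calls that VSNL1, CAMK4, CADPS2, GRIN2B, SYT1 and NAV3 kept in the other fits are no support. HPCAL1 and CAMK2D were not called with no count filter (log2 fold change 0.2 and 0.23) or without either WT library (HPCAL1 0.22 and 0.19, CAMK2D 0.25 and 0.23). With each library left out HPCAL1 ran from 0.17 to 0.25 and CAMK2D from 0.17 to 0.3. GRIN2D, never called, turned to 0.01 with upper quartile factors and, with each library left out, ran from -0.07 to 0.02 (0.02 without DKO replicate 1 and 0.01 without WT replicate 1). With each library left out, the change of the log2 ratio ran from 6.44 to 6.9 for VSNL1 over HPCAL1, 3.13 to 3.26 for CAMK4 over CAMK2D, -3.14 to -2.74 for CADPS over CADPS2 and 2.87 to 2.94 for GRIN2B over GRIN2D.

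Genome-wide, 3632 genes were higher and 4025 lower. With no count filter there were 1640 and 1655, and with the Wald test of DESeq2 2479 and 2524. With a library left out, higher calls ran from 1023 to 3127 and lower calls from 928 to 3443. List genes went from 29 higher and 36 lower to 17 and 17 with no count filter, and with a library left out ran from 14 to 27 and from 9 to 33. Neighbours called higher ran from 6 to 15. Where a library is left out, its partner is assumed to vary like the pair of the other group. The cause of the lost calls was not tested.

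With the replicate number as a block 3742 genes were higher and 4078 lower, and 30 and 36 of the list genes. Same-numbered libraries did not deviate together (r = 0.0114). That shows no large shared deviation by number, but cannot tell whether same-numbered samples were handled together.

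Of 91 other named genes, 44 kept direction and call throughout. Uncalled genes near 0 changed sign, namely REST (0.02), RRM2 (0.03) and SLC25A46 (0.0029) with upper quartile factors and RRM2 (0.0008) with at least 50 reads required. With each library left out the ranges crossed 0 for CYS1 (-0.24 to 0.12), NDUFA5 (-0.02 to 0.05), THOC7 (-0.0003 to 0.09), GRWD1 (-0.09 to 0.0016), ODC1 (-0.09 to 0.01), SLC25A46 (-0.14 to 0.07) and PTPRG (-0.05 to 0.07). Levels per exon length were not run, as the tables used give spans only. At 4 to 7 reads a library, a change of CADPS itself was not detectable at this depth.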
